A study of Arabidopsis thaliana with 18 samples.

Results

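The transcripts described here are those that low oxygen induced in wild-type Arabidopsis seedlings and that in air were near wild-type levels in the prt6-1 and ate1 ate2 mutants, which lack steps of the arginine branch in N-degron proteolysis. They are measured by 52 of the 22746 probe sets tested. Of the 52, 27 stand for exactly 1 gene in the annotation used, 1 stands for several genes, and 24 carry no gene name there and are given by their probe set ID. The members were chosen from the seedling arrays by 3 measured differences of group means of log2 values. The first was hypoxia minus air in Col-0, which had to be at least 1, with both hypoxia arrays above both air arrays. The others were prt6-1 minus Col-0 in air and ate1 ate2 minus Col-0 in air, which both had to lie between -0.5 and 0.5. The mitochondrial carrier gene AT5G26200 and the families named CML, WRKY, XTH, EXPA, UGT and CYP were left out by name, which removed AT5G26200, WRKY22 and WRKY6. Only names in the annotation could be screened, so the 24 members with no gene name may include genes of these families.

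The 12 seedling arrays held 6 groups of 2: prt6-1 under hypoxia and in air, ate1 ate2 under hypoxia and in air, and Col-0 under hypoxia and in air. The 6 seed arrays held prt6-1 and Col-0, 3 of each. prt6-1 carries a mutant allele of PRT6, ate1 ate2 is mutant in both arginyl-transferase genes, and Col-0 is the wild type; the labels name no alleles for ate1 and ate2. Each mutant is represented by a single genotype. All seedlings were 7 d old, had grown upright on salt medium with sucrose in days of 16 h light and 8 h darkness after 3 d in the cold, and were treated for 2 h from the end of the light period in dim light, with argon passed through a closed chamber for hypoxia or with air in an open one. Whole seedlings were frozen. All seeds were after-ripened, kept cold for 48 h and then imbibed for 24 h in constant light before whole seeds were taken. The series' design text calls the replicates independent biological experiments. The level is a log2 value on the scale the authors deposited, and 1 log2 unit is a doubling of signal. With 2 or 3 arrays a group, the number of arrays limits the precision. In whole seedlings and seeds, fewer cells of a type and less RNA per cell cannot be told apart.

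In the arginine branch of the N-degron pathway, a protein with a suitable first residue receives arginine from the transferases ATE1 and ATE2, and the ubiquitin ligase PRT6 recognises that arginine and sends the protein to the proteasome. The group VII ethylene response factors begin with methionine and cysteine, and in air the exposed cysteine is oxidised, so these factors are degraded. Under low oxygen they last longer and switch on genes for fermentation and for survival of flooding. Mutants that lack PRT6 or both transferases keep these factors in air, and many hypoxia genes are already on in such plants. Plants also answer low oxygen through calcium, reactive oxygen and energy status.

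Of the 22746 probe sets, 143 were at least 1 log2 unit higher under hypoxia in Col-0, and in all 143 both hypoxia arrays lay above both air arrays, as they did in 18.5% of all probe sets. In 75 of these both mutants lay above the band around Col-0 in air, in 12 exactly 1 mutant did, and in 1 a mutant lay below it. That left 55, and 52 after the exclusions by name. The Col-0 differences of the 52 ranged from 1.01 to 2.29 with a median of 1.32, and those of the other 91 induced probe sets had a median of 1.69. These values chose the members, so they are given with no test. In air the median difference of the 52 from Col-0 was 0.17 in prt6-1 and 0.19 in ate1 ate2. Within the band the members did not lie evenly about 0: 35 of 52 were above Col-0 in prt6-1 and 44 of 52 in ate1 ate2, while of all 21474 probe sets within the band 47.5% and 47.6% were above Col-0 in the same order. Both differences subtract the Col-0 air arrays that the minimum Col-0 difference also subtracts. Low Col-0 air arrays raise all of these differences, so the uneven counts cannot be read as a trait of the members.

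In air 2 of the 52 members, 267028_at and 247524_at, were still called higher than Col-0 in prt6-1 by limma, against 2.18% of all probe sets, and 3, 258189_at, AT2G18670 and 267028_at, in ate1 ate2, against 2.09%, in comparisons that the choice of members used. The band limited these differences, so the counts cannot be weighed against the shares of all probe sets. At the edges of the rule, the members nearest to the minimum Col-0 difference were 256017_at at 1.01, AT5G46710 at 1.04 and 253987_at at 1.06. Just below it lay AT1G64460 at 0.996, AT1G72540 at 0.987 and 249746_at at 0.971. In prt6-1 in air the members closest to the limit were AT2G37750 at 0.45, 253887_at at 0.43 and 267028_at at 0.41, and the nearest outside, among induced probe sets within the ate1 ate2 band, were AT3G12150 at 0.53, 248448_at at 0.55 and 249337_at at 0.84. In ate1 ate2 in air the members closest to the limit were AT1G31310 at -0.46, AT2G18670 at 0.46 and 258189_at at 0.43. The nearest outside, among those within the prt6-1 band, were AT5G44730 at 0.53, the pyruvate decarboxylase gene PDC2 at 0.53 and AT5G11090 at 0.54.

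Array medians lay between 6.70 and 6.88 log2 units. Genes typical of the sampled organs followed the labels: the median level of 4 measured root genes was 4.79 to 5.32 on the seed arrays and 7.48 to 8.58 on the seedling arrays. The median of 7 photosynthesis genes was 8.87 to 9.25 on seed arrays and 13.05 to 13.44 on seedling arrays, and that of 3 seed genes was 11.35 to 12.02 on seed arrays and 4.29 to 7.01 on seedling arrays. The last 2 lists were drawn up after seeing which genes the annotation names. Here and below, a listed gene counts as measured where the annotation names a probe set for that gene alone. Other listed genes may be among the unnamed probe sets. PRT6, ATE1 and ATE2 themselves were not analysed here, so the genotype labels were not checked at the mutated genes.

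Most of the 52 also rose under hypoxia in both mutants, whose hypoxia arrays had no part in choosing them. In prt6-1, 44 of 52 passed the test as higher under hypoxia and 0 as lower, where 2.32% of all probe sets were lower (limma, adjusted p under 0.05 over all probe sets, which is what called means below). Of all probe sets, 1.75% were called higher in prt6-1. In ate1 ate2, 43 of 52 were called higher and 0 lower, against 1.61% of all probe sets called higher and 1.31% lower. The members called in both mutants were 41 of 52, against 1.02% of all probe sets, and 22 of these 41 stand for 1 gene. Another 3 were called in prt6-1 alone, 2 in ate1 ate2 alone and 6 in neither. The mutants' air arrays did enter the choice through the band around Col-0.

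The median difference of the 52 was 1.12 in prt6-1, with a range of 0.01 to 2.26, and 0.97 in ate1 ate2, with a range of 0.17 to 2.22. Over all probe sets the medians were -0.02 in both mutants. Both hypoxia arrays lay above both air arrays in 49 of 52 members in prt6-1, against 19.7% of all probe sets, and in 50 of 52 in ate1 ate2, against 20.7% of all probe sets. The exceptions were AT4G37850, 254385_s_at and 256017_at in prt6-1, and AT2G22880 and 256017_at in ate1 ate2. A difference of at least 1 was reached by 33 of 52 members in prt6-1 and by 24 of 52 in ate1 ate2, and by 0.418% and 0.29% of all probe sets in the same order. The difference was at least as large as in Col-0 for 16 members in prt6-1 and for 7 in ate1 ate2. That count uses the Col-0 values that chose the members and is a description only.

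Some root genes moved in the opposite direction. Of the 4 measured root genes of a list of 8, 2 fell under hypoxia in each mutant, EXPA7 by limma at -0.75 in prt6-1 (adjusted p = 0.00122) and -1.06 in ate1 ate2 (adjusted p = 8.33e-05) and EXPA18 at -1.23 (adjusted p = 0.000309) and -1.21 (adjusted p = 0.000541), both expansin genes of root hair cells. In Col-0 0 of the 4 were called, and in air 1 of the 4 was called higher than Col-0 in prt6-1 and 3 in ate1 ate2. The log2 of the summed level of the 4 genes ranged from 10.57 to 10.67 under hypoxia against 11.07 to 11.23 in air in prt6-1, from 10.69 to 10.85 against 11.20 to 11.55 in ate1 ate2, and from 10.50 to 10.62 against 10.58 to 10.77 in Col-0. None was listed at 0. Their part in the members' differences was not tested.

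**Figure D1:**
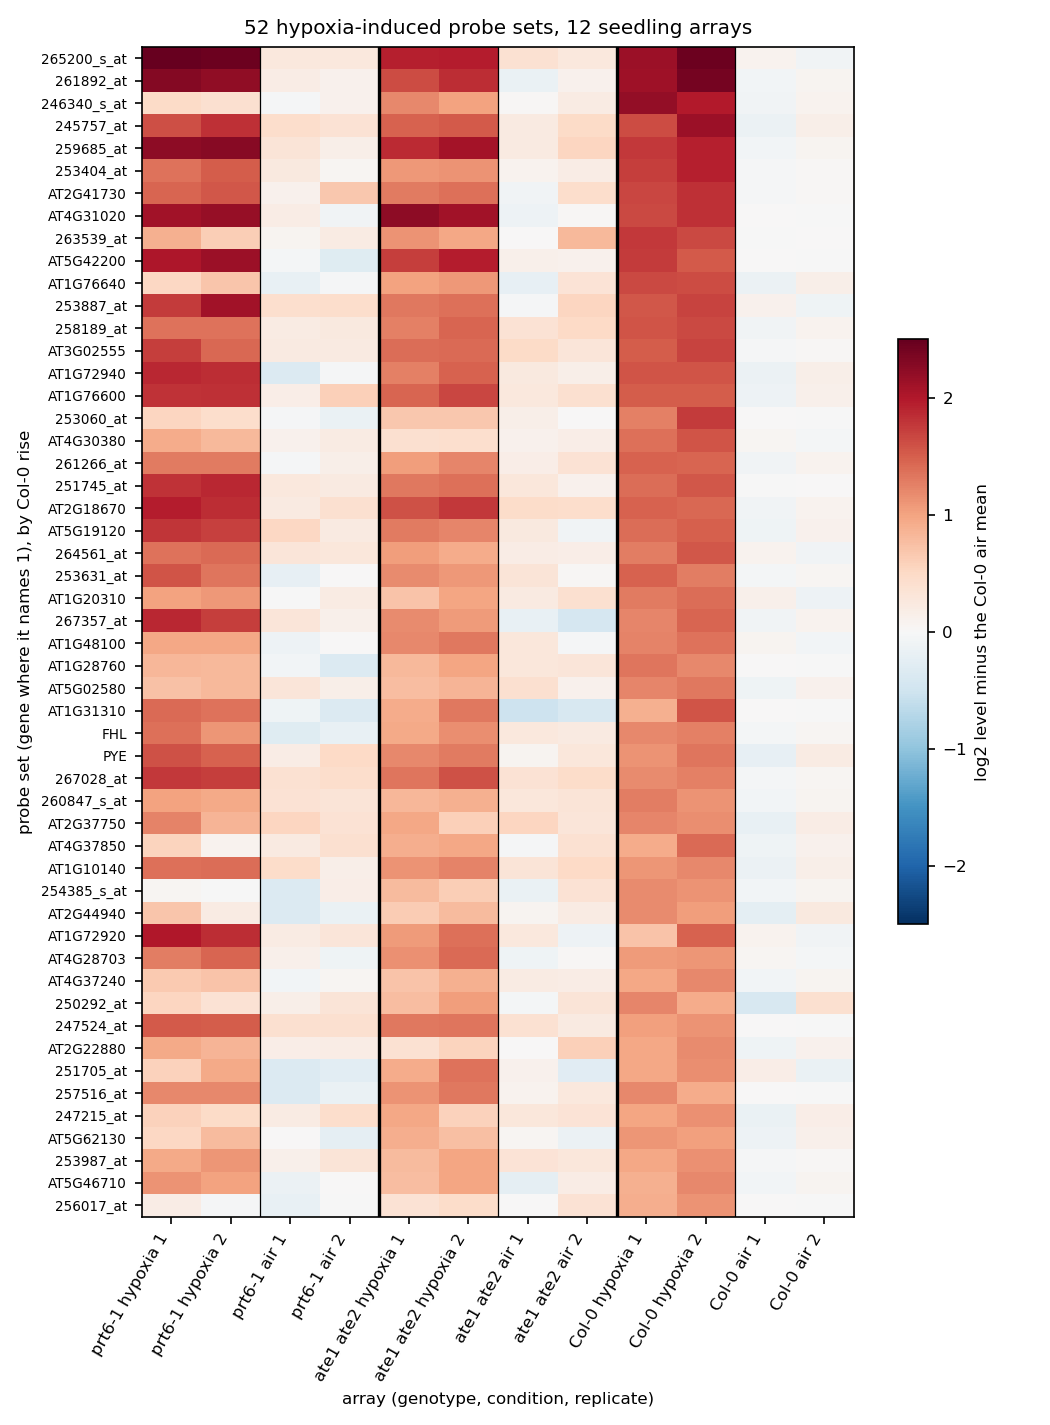
Colour gives the log2 level of each of the 52 probe sets (rows, ordered by the Col-0 difference) on each of the 12 seedling arrays (columns), minus the mean of the 2 Col-0 air arrays. The hypoxia columns of all 3 genotypes are red for most rows and the air columns are pale in both mutants, as the choice of members requires; 246340_s_at, 254385_s_at and 256017_at are among the palest rows in the prt6-1 hypoxia columns.

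Among the named members, grouped by what they encode after their values were seen, 4 are RING-finger or TIR-domain genes, and all 4 rose in both mutants, with differences of 1.58 to 2.26 in prt6-1 and 1.16 to 1.74 in ate1 ate2. Of all 27 named members, 25 were called higher in prt6-1 and 23 in ate1 ate2. The counts in this and the following groups are therefore a description only. AT5G42200 encodes a RING-finger protein, a class that includes many ubiquitin ligases, and is on the list of core hypoxia-responsive genes. Its log2 level was 9.30 and 9.41 under hypoxia against 7.23 and 6.97 in air in prt6-1, 9.01 and 9.23 against 7.39 and 7.38 in ate1 ate2, and 9.01 and 8.81 against 7.27 and 7.27 in Col-0. In each genotype the hypoxia arrays stood well apart from the air arrays, and the prt6-1 hypoxia arrays were the highest of all. The difference was 2.26 in prt6-1 (SE 0.12, 4.79-fold, adjusted p = 3.94e-08) and 1.74 in ate1 ate2 (SE 0.12, 3.33-fold, adjusted p = 1.41e-06), by limma.

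AT2G18670, a RING-finger gene of the ATL type, had levels of 8.65 and 8.54 under hypoxia against 6.92 and 7.10 in air in prt6-1, 8.28 and 8.45 against 7.16 and 7.13 in ate1 ate2, and 8.15 and 8.12 against 6.60 and 6.77 in Col-0. No hypoxia array overlapped any air array, and the highest level was on a prt6-1 array. It rose by 1.58 in prt6-1 (adjusted p = 5.53e-07) and 1.22 in ate1 ate2 (adjusted p = 1.48e-05) by limma. AT1G72940 and AT1G72920 encode proteins with a TIR domain, which in plants is best known from pathogen receptors, and they lie close together on chromosome 1, with AT1G72930 (TIR), which was not analysed here, between them. AT1G72940 was at 9.06 and 9.03 under hypoxia against 6.84 and 7.16 in air in prt6-1, 8.44 and 8.66 against 7.42 and 7.32 in ate1 ate2, and 8.74 and 8.75 against 7.04 and 7.32 in Col-0. All hypoxia arrays were above all air arrays, with ate1 ate2 the lowest of the hypoxia groups, and the difference was 2.04 in prt6-1 (SE 0.13, 4.13-fold, adjusted p = 2.16e-07) and 1.18 in ate1 ate2 (SE 0.13, 2.26-fold, adjusted p = 0.000109). AT1G72920, a dimmer probe set, had 6.02 and 5.87 under hypoxia against 4.23 and 4.32 in air in prt6-1, 5.09 and 5.40 against 4.28 and 3.88 in ate1 ate2, and 4.74 and 5.49 against 4.11 and 3.92 in Col-0. The groups did not overlap within a genotype, though Col-0 hypoxia replicate 1 lay nearest to the air arrays. It rose by 1.67 in prt6-1 (adjusted p = 0.000155) and 1.16 in ate1 ate2 (adjusted p = 0.00427). Without ate1 ate2 hypoxia replicate 2 the ate1 ate2 call for AT1G72920 was lost (adjusted p = 0.0887).

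Of 7 nuclear regulators, 6 rose in prt6-1, 5 in ate1 ate2 and 4 in both. AT1G31310, a gene of the trihelix family of DNA-binding proteins, was at 6.56 and 6.51 under hypoxia against 5.04 and 4.81 in air in prt6-1, 6.08 and 6.47 against 4.63 and 4.74 in ate1 ate2, and 6.03 and 6.73 against 5.17 and 5.13 in Col-0. The hypoxia arrays did not overlap the air arrays, and the 2 Col-0 hypoxia arrays differed more from each other than those of either mutant. The rise was 1.61 in prt6-1 (SE 0.18, 3.05-fold, adjusted p = 0.0001) and 1.59 in ate1 ate2 (SE 0.18, 3.02-fold, adjusted p = 0.000148). FHL, which works with FHY1 in carrying the light receptor phytochrome A into the nucleus, is on the core hypoxia list and had 6.59 and 6.32 under hypoxia against 4.93 and 5.03 in air in prt6-1, 6.17 and 6.39 against 5.48 and 5.46 in ate1 ate2, and 6.42 and 6.48 against 5.17 and 5.28 in Col-0. Hypoxia arrays were above air arrays in every genotype, and the smallest gap was in ate1 ate2, whose air arrays were the highest of the air groups. FHL rose by 1.48 in prt6-1 (adjusted p = 2.41e-06) and 0.82 in ate1 ate2 (adjusted p = 0.00113).

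PYE, the bHLH protein POPEYE of the iron-deficiency response, was one of the brighter members with 9.82 and 9.70 under hypoxia against 8.41 and 8.72 in air in prt6-1, 9.43 and 9.51 against 8.29 and 8.51 in ate1 ate2, and 9.33 and 9.55 against 8.02 and 8.42 in Col-0. The groups did not overlap within any genotype, and PYE rose by 1.19 in prt6-1 (adjusted p = 0.000207) and 1.07 in ate1 ate2 (adjusted p = 0.00079). AT5G46710, a PLATZ-type zinc-binding protein gene, rose by 1.13 in prt6-1 (adjusted p = 0.000337) and 0.90 in ate1 ate2 (adjusted p = 0.00318), but without ate1 ate2 hypoxia replicate 2 its ate1 ate2 call was lost (adjusted p = 0.0727). These 4 regulators were called in both mutants.

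The other 3 regulators were called in 1 mutant each. The bHLH gene AT4G37850 had 4.49 and 4.01 under hypoxia against 4.15 and 4.33 in air in prt6-1, 4.84 and 4.90 against 3.89 and 4.31 in ate1 ate2, and 4.85 and 5.35 against 3.83 and 4.02 in Col-0. In prt6-1 the hypoxia and air arrays overlapped, whereas in ate1 ate2 and Col-0 they did not. The difference was 0.01 in prt6-1 (adjusted p = 0.989) and 0.76 in ate1 ate2 (adjusted p = 0.0388), and the ate1 ate2 call was lost without either ate1 ate2 hypoxia array or without ate1 ate2 air replicate 1 (adjusted p up to 0.259). The VQ-motif gene AT2G22880, of a family of WRKY partners, showed the reverse: 6.23 and 6.13 under hypoxia against 5.44 and 5.46 in air in prt6-1, 5.67 and 5.83 against 5.28 and 5.88 in ate1 ate2, and 6.24 and 6.45 against 5.16 and 5.39 in Col-0. There the ate1 ate2 arrays overlapped and those of prt6-1 and Col-0 did not. The difference was 0.73 in prt6-1 (adjusted p = 0.0181) and 0.17 in ate1 ate2 (adjusted p = 0.681); the prt6-1 call was lost without any 1 of the 4 prt6-1 arrays (adjusted p up to 0.128). The AP2/ERF gene AT2G44940, of the DREB subfamily and outside group VII, differed by 0.71 in prt6-1 (adjusted p = 0.0299) and 0.58 in ate1 ate2 (adjusted p = 0.0914), and its prt6-1 call was lost without either prt6-1 air array or without prt6-1 hypoxia replicate 1 (adjusted p up to 0.282).

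Being called in 1 mutant and not in the other does not show that the mutants differ, and that difference was tested separately.

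Of 5 genes for cell wall, hydrolase and calcium-binding proteins, all 5 rose in prt6-1 and 4 in ate1 ate2. AT4G31020, an alpha/beta hydrolase gene, had the largest rise of the named members in ate1 ate2: its levels were 7.24 and 7.32 under hypoxia against 5.34 and 5.06 in air in prt6-1, 7.39 and 7.25 against 5.02 and 5.18 in ate1 ate2, and 6.79 and 6.97 against 5.16 and 5.13 in Col-0. The air arrays of all 3 genotypes lay within a narrow span, and every hypoxia array was far above them, those of the mutants higher than those of Col-0. The rise was 2.08 in prt6-1 (SE 0.12, 4.23-fold, adjusted p = 6.58e-08) and 2.22 in ate1 ate2 (SE 0.12, 4.66-fold, adjusted p = 6.96e-08). AT5G19120, an aspartyl protease family gene and the brightest named member, had 12.39 and 12.31 under hypoxia against 11.11 and 10.83 in air in prt6-1, 11.90 and 11.81 against 10.84 and 10.50 in ate1 ate2, and 11.99 and 12.08 against 10.48 and 10.71 in Col-0. Hypoxia and air did not overlap within a genotype, and it rose by 1.38 in prt6-1 (adjusted p = 1.87e-05) and 1.19 in ate1 ate2 (adjusted p = 0.000134). AT1G48100, of the polygalacturonase family that trims pectin, rose by 1.02 in prt6-1 (adjusted p = 0.000124) and 1.14 in ate1 ate2 (adjusted p = 6.48e-05).

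AT4G30380 carries the synonym EXLB2, an expansin-like gene. Its levels were 4.94 and 4.83 under hypoxia against 4.12 and 4.22 in air in prt6-1, 4.41 and 4.43 against 4.11 and 4.18 in ate1 ate2, and 5.39 and 5.58 against 4.06 and 3.97 in Col-0. The groups did not overlap within a genotype, but the mutant hypoxia arrays were all below the Col-0 hypoxia arrays. Here and elsewhere, levels set against the Col-0 hypoxia arrays are a description only, since those arrays helped choose the members. It rose by 0.72 in prt6-1 (adjusted p = 0.000861), while the ate1 ate2 difference of 0.27 did not pass (adjusted p = 0.215). AT1G76640 has the synonym CML39 but no CML symbol in the annotation, so it was kept; it encodes a calmodulin-like calcium-binding protein. Its levels were 5.15 and 5.33 under hypoxia against 4.45 and 4.62 in air in prt6-1, 5.64 and 5.73 against 4.43 and 4.98 in ate1 ate2, and 6.28 and 6.27 against 4.49 and 4.79 in Col-0. All hypoxia arrays were above all air arrays, in the order Col-0, ate1 ate2, prt6-1 from high to low. The rise was 0.71 in prt6-1 (adjusted p = 0.0184) and 0.98 in ate1 ate2 (adjusted p = 0.00275), and the prt6-1 call was lost without any 1 of the 4 prt6-1 arrays (adjusted p up to 0.16). Its neighbour on the chromosome, CML38, was 5.15 higher under hypoxia in Col-0 and 3.32 and 3.87 above Col-0 in air in prt6-1 and ate1 ate2, which placed it outside the band.

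The 11 remaining named members are of other or unknown function, and 10 of them rose in both mutants, with differences of 0.55 to 1.43 in prt6-1 and 0.36 to 1.32 in ate1 ate2 over all 11. AT2G41730 had the largest Col-0 difference of the named members and is the only one of the 27 named members on a list of 16 genes that answer mitochondrial dysfunction, of which 7 were measured. Its probe set is of a kind (_x_at) whose probes can bind related transcripts, so its values are less certain. It was at 8.88 and 8.97 under hypoxia against 7.53 and 8.09 in air in prt6-1, 8.71 and 8.78 against 7.33 and 7.85 in ate1 ate2, and 9.09 and 9.25 against 7.38 and 7.45 in Col-0. Hypoxia and air did not overlap within a genotype, and the 2 air arrays of each mutant differed by more than those of Col-0. The rise was 1.11 in prt6-1 (adjusted p = 0.00157) and 1.16 in ate1 ate2 (adjusted p = 0.00165).

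AT4G28703, a cupin family gene, was at 6.88 and 7.05 under hypoxia against 5.73 and 5.48 in air in prt6-1, 6.74 and 7.02 against 5.49 and 5.63 in ate1 ate2, and 6.67 and 6.71 against 5.66 and 5.54 in Col-0. The 6 hypoxia arrays and the 6 air arrays formed separate, tight groups, and it rose by 1.36 in prt6-1 (adjusted p = 9.43e-06) and 1.32 in ate1 ate2 (adjusted p = 2.17e-05). AT3G02555, of unknown function, had 8.85 and 8.57 under hypoxia against 7.35 and 7.35 in air in prt6-1, 8.52 and 8.53 against 7.60 and 7.43 in ate1 ate2, and 8.64 and 8.81 against 7.10 and 7.14 in Col-0. It lies next to LBD41, not analysed here, and rose by 1.36 in prt6-1 (adjusted p = 4.87e-06) and 1.01 in ate1 ate2 (adjusted p = 0.000146) with no overlap between hypoxia and air. AT1G76600 rose by 1.43 in prt6-1 (adjusted p = 2.16e-05) and 1.22 in ate1 ate2 (adjusted p = 0.000152). AT1G10140, on the core hypoxia list, was at 9.48 and 9.51 under hypoxia against 8.56 and 8.24 in air in prt6-1, 9.23 and 9.35 against 8.42 and 8.59 in ate1 ate2, and 9.21 and 9.30 against 7.96 and 8.24 in Col-0. Its groups did not overlap within a genotype, and it rose by 1.09 in prt6-1 (adjusted p = 0.00014) and 0.78 in ate1 ate2 (adjusted p = 0.00318), with the ate1 ate2 call lost without ate1 ate2 hypoxia replicate 2 (adjusted p = 0.0638).

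Smaller rises were found for AT1G28760 with 1.03 in prt6-1 and 0.61 in ate1 ate2, for AT1G20310 with 0.95 in prt6-1 and 0.54 in ate1 ate2, for AT5G62130, a Per1-like family gene, with 0.76 in prt6-1 and 0.87 in ate1 ate2, and for AT4G37240 with 0.70 in prt6-1 and 0.61 in ate1 ate2. Leaving out ate1 ate2 hypoxia replicate 2 ended the ate1 ate2 call for AT1G28760 (adjusted p = 0.131), AT4G37240 (adjusted p = 0.131) and AT1G20310. The last lost its call also without either ate1 ate2 air array or either Col-0 hypoxia array (adjusted p up to 0.382). The prt6-1 call of AT5G62130 was lost without prt6-1 air replicate 2 or hypoxia replicate 2 (adjusted p up to 0.0671). AT5G02580 rose by 0.55 in prt6-1 (adjusted p = 0.0198) and 0.57 in ate1 ate2 (adjusted p = 0.0209), calls that were lost without any 1 of the 4 prt6-1 arrays and without 3 of the 4 ate1 ate2 arrays, all but air replicate 1 (adjusted p up to 0.172 and 0.207). AT2G37750 was the one named member called in neither mutant. It had 10.35 and 9.97 under hypoxia against 9.65 and 9.48 in air in prt6-1, 10.09 and 9.71 against 9.65 and 9.42 in ate1 ate2, and 10.33 and 10.28 against 8.94 and 9.30 in Col-0. Hypoxia arrays were above air arrays in each genotype, but the gap was narrow in the mutants, and the difference was 0.60 in prt6-1 (adjusted p = 0.0528) and 0.36 in ate1 ate2 (adjusted p = 0.295).

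**Figure D2:**
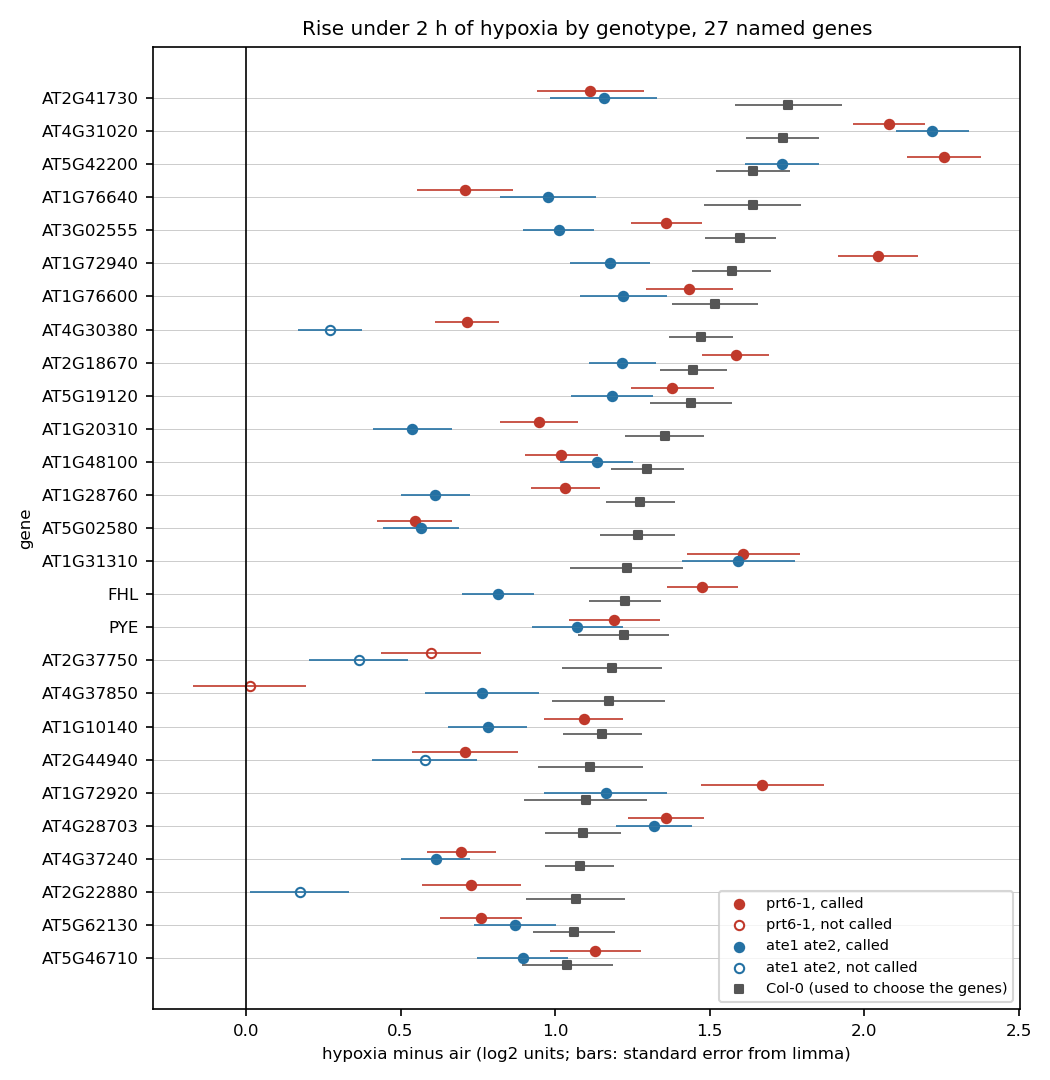
Points give hypoxia minus air in log2 units for each of the 27 named genes (rows) in prt6-1 (red), ate1 ate2 (blue) and Col-0 (grey squares), with bars of 1 standard error from limma; filled circles are called and open ones are not. All points lie above 0, 25 of 27 genes are called in prt6-1 and 23 of 27 in ate1 ate2, and the Col-0 squares lie above 1 because they were used to choose the genes.

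**Figure D3:**
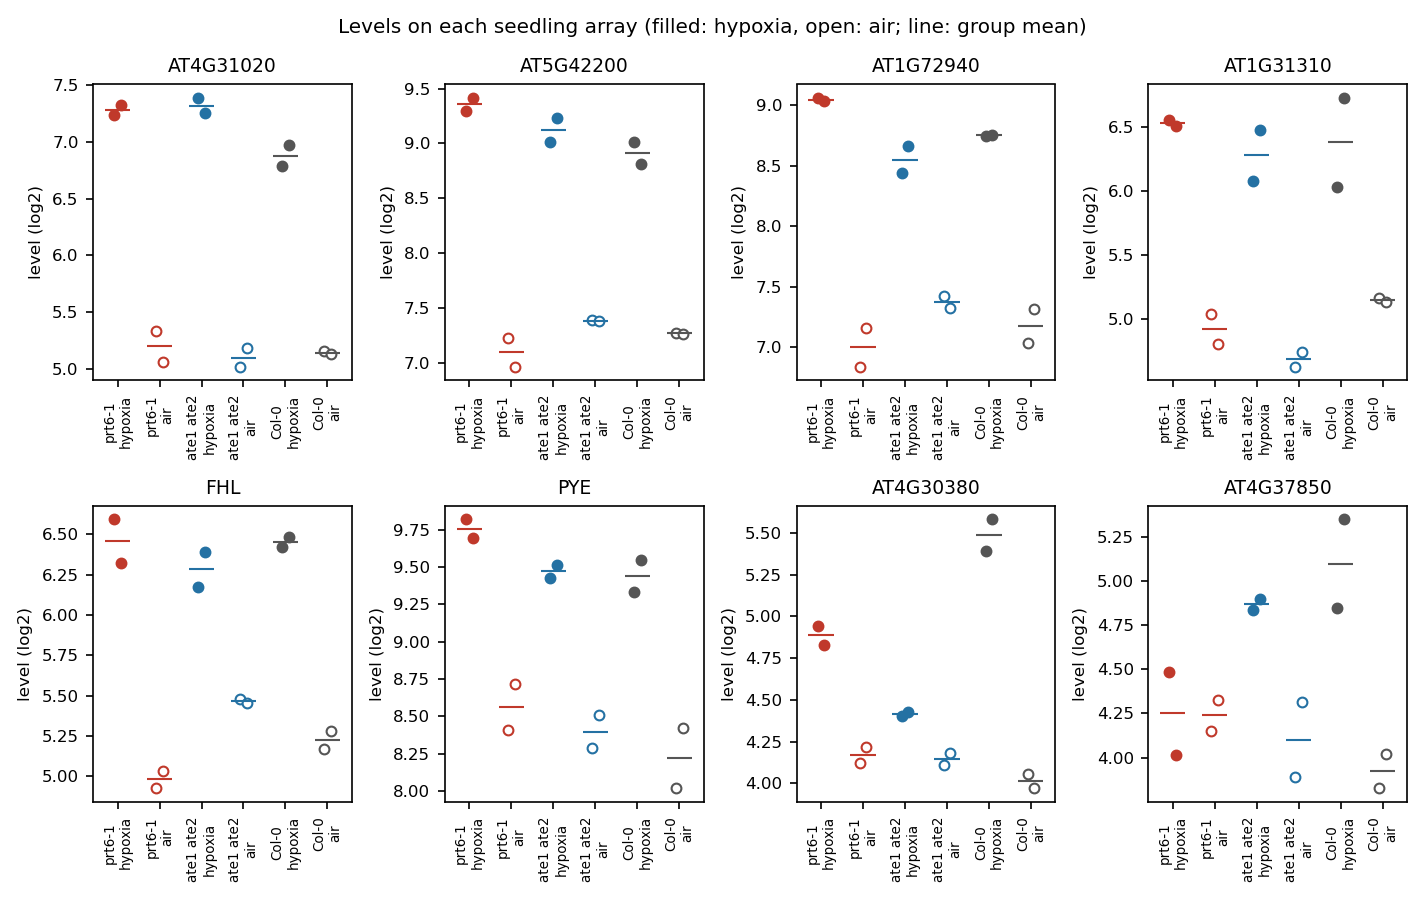
Each panel gives the log2 level of 1 gene on each seedling array by genotype and condition, with a line at the mean of the 2 arrays; each panel has its own vertical axis, which does not start at 0. AT4G31020 and AT5G42200 have hypoxia arrays far above air arrays in all 3 genotypes, AT4G30380 has lower hypoxia arrays in both mutants than in Col-0, and AT4G37850 overlaps between conditions in prt6-1. The Col-0 hypoxia arrays helped choose the genes.

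The largest Col-0 differences of the 52 belonged to probe sets with no single gene name. 265200_s_at had 8.84 and 8.71 under hypoxia against 6.52 and 6.54 in air in prt6-1, 8.21 and 8.24 against 6.64 and 6.53 in ate1 ate2, and 8.41 and 8.71 against 6.36 and 6.17 in Col-0. Its hypoxia arrays were all above its air arrays, and it rose by 2.24 in prt6-1 (adjusted p = 3.82e-08) and 1.64 in ate1 ate2 (adjusted p = 1.68e-06). 261892_at was at 7.25 and 7.18 under hypoxia against 5.15 and 5.07 in air in prt6-1, 6.58 and 6.81 against 4.80 and 5.07 in ate1 ate2, and 7.09 and 7.35 against 4.88 and 5.04 in Col-0. It showed the same separation and rose by 2.11 in prt6-1 (adjusted p = 1.47e-07) and 1.76 in ate1 ate2 (adjusted p = 2.01e-06). Not all of the largest rose as far in the mutants. 246340_s_at differed by 2.09 in Col-0 and by 0.41 in prt6-1, which was not called (adjusted p = 0.0782). In ate1 ate2 it rose by 0.99 (adjusted p = 0.000222). 259685_at, also among the larger ones, had 10.33 and 10.37 under hypoxia against 8.42 and 8.24 in air in prt6-1, 9.97 and 10.17 against 8.33 and 8.64 in ate1 ate2, and 9.87 and 10.04 against 8.03 and 8.17 in Col-0. No groups overlapped within a genotype, and it rose by 2.02 in prt6-1 (adjusted p = 1.86e-07) and 1.58 in ate1 ate2 (adjusted p = 5.17e-06). Of the 52 probe sets, 4 end in _s_at and 1 in _x_at, whose probes match more than 1 transcript, so the gene behind their signal is uncertain.

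The 6 probe sets called in neither mutant were AT2G37750, 263539_at, 254385_s_at, 250292_at, 247215_at and 256017_at. Of these, 263539_at had the largest Col-0 difference, 1.71, with levels of 6.38 and 6.09 under hypoxia against 5.56 and 5.69 in air in prt6-1, 6.60 and 6.45 against 5.50 and 6.31 in ate1 ate2, and 7.26 and 7.13 against 5.47 and 5.50 in Col-0. The mutant hypoxia arrays were all below the Col-0 hypoxia arrays, which helped choose the members. The mutant differences were 0.61 in prt6-1 (adjusted p = 0.0967) and 0.62 in ate1 ate2 (adjusted p = 0.104). At 254385_s_at the prt6-1 hypoxia arrays lay within the range of the prt6-1 air arrays, with 9.27 and 9.21 under hypoxia against 8.89 and 9.38 in air in prt6-1, 10.02 and 9.84 against 9.06 and 9.59 in ate1 ate2, and 10.40 and 10.36 against 9.15 and 9.30 in Col-0, and the differences were 0.10 in prt6-1 (adjusted p = 0.847) and 0.60 in ate1 ate2 (adjusted p = 0.0809). At 256017_at they were 0.18 in prt6-1 (adjusted p = 0.578) and 0.22 in ate1 ate2 (adjusted p = 0.476), with overlap in both mutants. At an unadjusted p under 0.05, limma gave 47 of 52 members in prt6-1 and 50 in ate1 ate2. Over all 22746 probe sets the counts were 3508 and 3474, which are much smaller shares.

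The mutants were then set against each other, a comparison that holds no Col-0 array. Under hypoxia, ate1 ate2 minus prt6-1 was below 0 for 34 of 52 members, with a median of -0.19 against 0.00 over all probe sets (range of the members -0.70 to 0.69). Of the other 91 induced probe sets, 63 were below 0, with a median of -0.12. By limma 1 member was called higher in ate1 ate2, against 0.0923% of all probe sets, and 1 lower, against 0.0703%. The higher one was 246340_s_at, at 6.11 and 5.91 in ate1 ate2 against 5.38 and 5.30 in prt6-1 under hypoxia, a difference of 0.67 (SE 0.12, adjusted p = 0.0412). The arrays of the mutants did not overlap, and both mutants were below the Col-0 hypoxia arrays at 7.10 and 6.89, which helped choose the members. The lower one was 267357_at, at 8.64 and 8.51 in ate1 ate2 against 9.34 and 9.18 in prt6-1, a difference of -0.69 (SE 0.12, adjusted p = 0.0442), again with no overlap. Leaving out 1 array ended the first call in 8 of 12 cases, all but the air arrays of ate1 ate2 and Col-0 (adjusted p up to 0.348), and the second in 10 of 12, all but the air arrays of ate1 ate2 (adjusted p up to 0.473). The first call was also lost after median centring (adjusted p = 0.0691), quantile renormalization (adjusted p = 0.0712) and in one fit of all 18 arrays (adjusted p = 0.115), and the second in one fit of all 18 arrays (adjusted p = 0.287).

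None of the 27 named genes was called between the mutants under hypoxia. An unadjusted p under 0.05 by limma was found for 8 of the 27, 22 of the 52 and 1922 of all 22746 probe sets. The share was larger among the members than over all probe sets. The hypoxia response itself, the rise in ate1 ate2 minus the rise in prt6-1, was called for 0 of 52 members, and for 1 of all probe sets (0.0044%). Its median over the members was -0.21 against 0.01 over all probe sets, and 37 of 52 were below 0. The other 91 induced probe sets had a median of -0.22, with 74 below 0, so this tilt was not particular to the members. By limma 17 of the 52 had an unadjusted p under 0.05, against 1389 of all 22746 probe sets, a smaller share. For AT4G37850, the named gene with the largest positive value, the difference of the rises was 0.75, and for AT1G72940, with the largest negative value, -0.87, and neither was called.

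Relative to Col-0 under hypoxia, the values below share the Col-0 hypoxia arrays that chose the members and have no test. The prt6-1 minus Col-0 difference under hypoxia had a median of -0.09 (range -1.65 to 0.83) and the ate1 ate2 minus Col-0 difference one of -0.24 (range -1.07 to 0.44). For the other 91 induced probe sets the medians were 0.45 and 0.23 in the same order. AT5G42200 was 0.45 above Col-0 under hypoxia in prt6-1 and 0.21 above it in ate1 ate2. AT1G76640 was at -1.04 in prt6-1 and -0.59 in ate1 ate2, and AT4G30380 at -0.60 in prt6-1 and -1.07 in ate1 ate2, all below Col-0. The rise in the mutant minus the rise in Col-0 had medians of -0.24 in prt6-1 and -0.48 in ate1 ate2 for the 52, and -0.75 and -0.90 for the other 91. The comparisons of the 2 mutants with Col-0 use the same Col-0 arrays.

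In imbibed seeds, whose arrays had no part in the choice, most of the 52 showed no called difference between prt6-1 and Col-0. With 3 seed arrays a group, a difference of 1 log2 unit can go uncalled. By limma 8 of 52 were called higher in prt6-1 seeds (15.4%), against 2.19% of all probe sets, and 1 of 52 lower (1.92%), against 1.91%. Of the other 91 hypoxia-induced probe sets, of which 88 lay outside the band in air, 49 were higher (53.8%) and 3 lower. The median prt6-1 minus Col-0 difference in seeds was 0.07 for the 52, 0.78 for the 91 and -0.02 for all probe sets. All 3 prt6-1 seed arrays lay above all 3 Col-0 seed arrays for 13 of the 52, against 12.3% of all probe sets, and below them for 10 of the 52, against 13.5%. The difference between the 2 sets of probe sets was not tested.

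Of the named genes, 3 of 27 rose in prt6-1 seeds. The TIR-domain gene AT1G72940 had 9.51, 9.44 and 9.44 in prt6-1 seeds, against 7.54, 7.69 and 7.97 in Col-0 seeds. The groups were far apart, and the difference was 1.73 (SE 0.13, 3.32-fold, adjusted p = 0.000329 by limma). The nearby gene AT1G72920, of the same family, differed by -0.05 in seeds (adjusted p = 0.897). AT5G19120, the aspartyl protease gene, had 9.11, 8.98 and 9.14 in prt6-1 seeds, against 8.54, 8.42 and 8.52 in Col-0 seeds, with no overlap and a difference of 0.58 (adjusted p = 0.0196). AT1G10140 had 7.05, 6.75 and 7.05 in prt6-1 seeds, against 6.48, 6.21 and 6.34 in Col-0 seeds, also without overlap, and a difference of 0.61 (adjusted p = 0.0364). The calls of AT5G19120 and AT1G10140 were lost on leaving out any 1 seed array other than Col-0 replicate 1 (adjusted p up to 0.0909 and 0.14) and in the fit with the replicate number as a block.

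Of the probe sets with no name, 247524_at had the largest seed difference of the 52, with 8.98, 8.96 and 8.96 in prt6-1 seeds, against 6.86, 6.99 and 7.29 in Col-0 seeds. Its prt6-1 arrays were nearly equal and all above the Col-0 arrays, and the difference was 1.92 (SE 0.13, 3.77-fold, adjusted p = 0.000191 by limma). 261266_at had 12.74, 12.53 and 12.60 in prt6-1 seeds, against 11.29, 11.77 and 11.68 in Col-0 seeds, a difference of 1.05 (adjusted p = 0.00701) without overlap. 253631_at differed by 1.05 (adjusted p = 0.0281), 265200_s_at by 0.92 (adjusted p = 0.0276) and 259685_at by 0.91 (adjusted p = 0.011), each with all prt6-1 arrays above all Col-0 arrays. The 253631_at call was lost without Col-0 replicate 3 or any 1 prt6-1 array (adjusted p up to 0.107), the 265200_s_at call without replicate 2 or 3 of either genotype (adjusted p up to 0.101), and the 259685_at call without Col-0 replicate 3 (adjusted p = 0.051). The lower probe set was 267028_at, with 6.17, 5.82 and 6.34 in prt6-1 seeds, against 7.31, 6.98 and 7.00 in Col-0 seeds. Its groups did not overlap, and it fell by 0.99 (adjusted p = 0.0134), a call lost without prt6-1 replicate 1 (adjusted p = 0.0559).

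**Figure D4:**
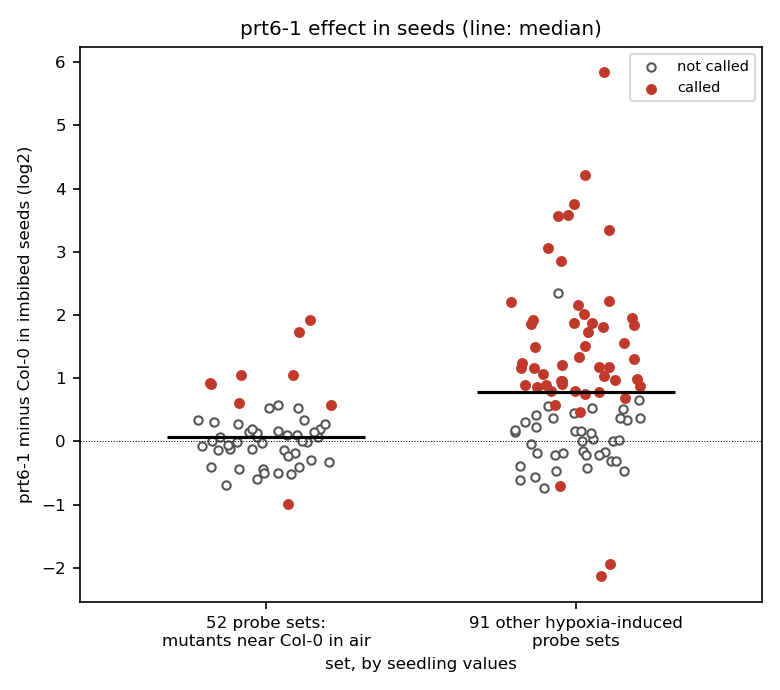
Each point is 1 probe set, placed by prt6-1 minus Col-0 in imbibed seeds in log2 units, for the 52 probe sets near Col-0 in mutant air seedlings and for the 91 other hypoxia-induced probe sets; red points are called, and lines are medians. The 52 gather around a median of 0.07 with 9 called, and the 91 around 0.78 with 49 called higher and 3 lower; sideways spread has no meaning.

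**Figure D5:**
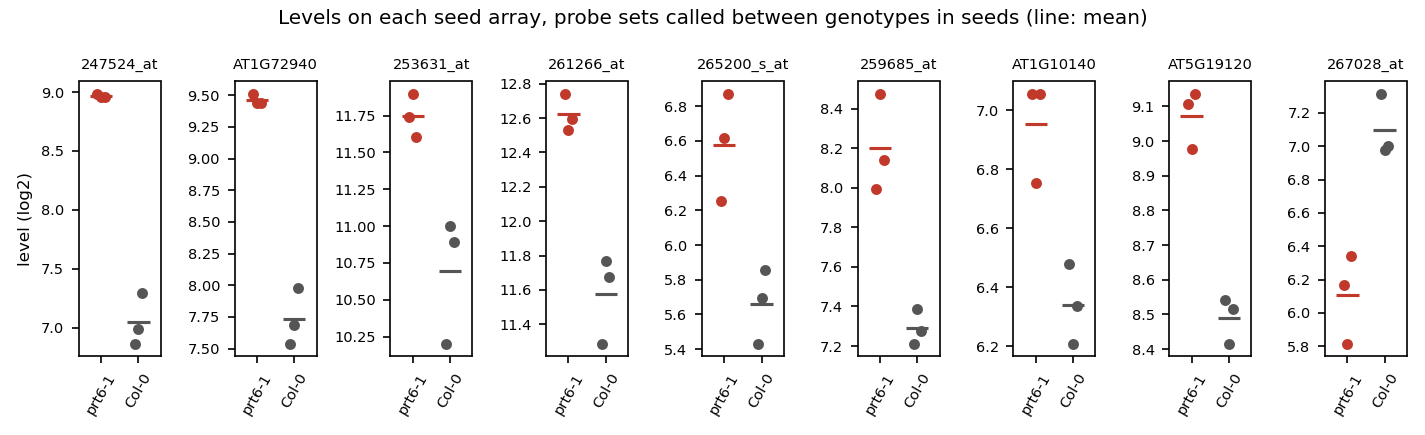
Log2 levels on each of the 3 prt6-1 (red) and 3 Col-0 (grey) seed arrays for the 9 probe sets called between the genotypes in seeds, with lines at the means; each panel has its own vertical axis, which does not start at 0. The prt6-1 arrays lie above the Col-0 arrays in the first 8 panels and below them in the last, 267028_at, and no panel shows overlap.

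Levels of the members in the 2 organs are given as a description of Col-0 with no test, since seeds and seedlings differ in age, medium and light. Of the 52, 27 were higher in Col-0 seeds than in Col-0 seedlings in air and 25 lower, 4 by at least 2 log2 units in each direction. The same counts were not made over all probe sets, so this split cannot be read as a trait of the members. AT5G02580 was the most seed-high at 10.12, 10.02 and 10.08 in prt6-1 seeds and 10.26, 10.13 and 10.05 in Col-0 seeds, against 5.39 and 5.62 in Col-0 seedlings in air. The unnamed 253887_at, 261266_at and the RING-finger gene AT2G18670 followed, with 3.31, 2.41 and 2.15 log2 units more in seeds. The most seed-low was AT2G37750 at 5.70, 5.37 and 5.65 in Col-0 seeds against 8.94 and 9.30 in Col-0 seedlings in air, followed by 254385_s_at, AT5G19120 and AT2G44940.

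Other genes of low-oxygen biology give the setting, from 18 lists of genes drawn up with earlier results of these data known. The core hypoxia-responsive list held 47 genes, 26 of them measured, and 3 of the 26, AT5G42200, FHL and AT1G10140, belong to the 52. Of the other 23, 22 were called higher under hypoxia in Col-0, where 1.64% of all probe sets were called higher, with a median difference of 3.43 against -0.01 over all probe sets. Of the 23, 20 were also called higher than Col-0 in air in prt6-1, against 2.18% of all probe sets, and 22 in ate1 ate2, against 2.09%. Listed genes with a Col-0 difference of at least 1 are outside the members because of the band in air. These counts in air therefore follow largely from the choice of members. In the mutants' own response to hypoxia 22 of the 26, the 3 members included, were called higher in prt6-1, against 1.75% of all probe sets. In ate1 ate2 20 of the 26 were, against 1.61%. HRA1 (AT3G10040), a trihelix gene of this list, was 4.98 higher under hypoxia in Col-0 and 1.71 and 2.04 above Col-0 in air in prt6-1 and ate1 ate2.

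In the glycolysis and fermentation list 4 of 23 genes were measured, and 2 were called higher under hypoxia in Col-0, PDC2 at 1.80 and the lactate dehydrogenase gene AT4G17260 at 1.16. Both were outside the band in at least 1 mutant, PDC2 at 0.27 in prt6-1 and 0.53 in ate1 ate2, and AT4G17260 at 0.67 and 0.76. Of 7 measured mitochondrial dysfunction genes, 1 is the member AT2G41730, and of the other 6, 1 was called higher under hypoxia in Col-0, the MATE transporter gene AT2G04050, which was 1.00 higher and was 1.35 and 0.91 above Col-0 in air in prt6-1 and ate1 ate2. Of 3 measured zinc-finger stress factors, 1 was called, STZ, at 0.88 in prt6-1, 1.05 in ate1 ate2 and 0.82 in Col-0. STZ stayed near Col-0 in air, at 0.16 in prt6-1 and 0.13 in ate1 ate2, but did not reach the minimum difference for membership. Of 4 ubiquitin ligase genes, PUB23 was called in Col-0, at 0.49, and PUB22 in prt6-1, at 0.54 (adjusted p = 0.0269). Of 3 energy and sugar starvation genes, AT3G15450 was called higher under hypoxia in both mutants, at 0.80 in prt6-1 (adjusted p = 0.0113) and 0.83 in ate1 ate2 (adjusted p = 0.0124), and none in Col-0. By limma 0 of 6 heat shock genes, 0 of 3 ethylene genes, 0 of 2 AP2/ERF genes outside group VII, 0 of 2 N-end rule genes, and neither the jasmonate gene nor the reactive oxygen gene was called in hypoxia minus air in prt6-1, ate1 ate2 or Col-0, the last a comparison with 2387 probe sets at an unadjusted p under 0.05 over the whole array. The counts above are of measured genes only. The 2 N-end rule genes, AT2G41760 and AT2G44420, come from a list of 11 that also holds the group VII factors, none of which was measured. In the NAC, MYB and calcium pump lists the annotation named no probe set for a listed gene alone, so these lists were not analysed here.

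The named members were spread over all 5 nuclear chromosomes. Their nearest neighbours gave 54 gene entries, with AT1G72930 entered beside both AT1G72940 and AT1G72920. Of the 54 entries, 23 were measured by a probe set of their own, and none of these 23 was itself a member. Whether the others are among the unnamed members is unknown. Of the measured neighbours 1, CML38, had a Col-0 difference of at least 1. The gene beside AT5G19120, AT5G19110, was 0.47 higher under hypoxia in prt6-1, 0.68 in ate1 ate2 and 0.65 in Col-0. The median length of the gene span in the TAIR10.1 gene table was 1311 bp for the 27 (345 to 3214 bp), against 1559 bp for 43 genes of the other induced probe sets and 2105 bp for 12331 measured genes. Lengths are a description with no test.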

How the data were processed

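RNA of 12 seedling and 6 seed samples was labelled and hybridised to Affymetrix ATH1 arrays. Biotin-labelled cRNA came from total RNA, per the labels' protocols. The authors deposited log2 values, 1 for each probe set on each array. The submitters' processing notes name RMA and affy, and versions are not given in the sources used here. RMA corrects background, gives all arrays 1 distribution and merges probes into probe sets; a change common to most transcripts would not be seen. Signal over background is unknown, since scanner files were not used here.

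After leaving out 64 control probe sets, 22746 were tested. The platform annotation from GEO, with symbols from the TAIR10.1 gene table, tied 13513 probe sets to 1 gene and 503 to several, and left 8730 unnamed. The last 2 kinds were counted and are given by ID. Promoter sequences were not analysed here.

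Groups came from the labels. Seedlings (6 groups, cell means) and seeds had separate fits by lmFit and eBayes (limma 3.58.1, R 4.3.3). Tests were two-sided, with Benjamini-Hochberg adjusted p over all 22746 probe sets, and a probe set under 0.05 was called. All adjusted p-values printed come from limma. The fit was tested on simulated data with known changes in few of the 22746 probe sets, 67 of them at 0.5 log2 units and 67 at 1. The share called depends on how many probe sets change, so it may differ in the real data. In the comparison of prt6-1 with Col-0 seeds, 11.9% of changes of 0.5 log2 units and 58.2% of changes of 1 were called. In prt6-1 hypoxia minus air, 37.3% and 95.5% were called in the same order. Hypoxia was compared with air in each mutant, the mutants with each other under hypoxia and in their response, and prt6-1 with Col-0 in seeds. For the members, differences that the choice used, or that hold the Col-0 hypoxia arrays, support nothing and get no p-value. Only the members called in air were counted. Listed genes outside the members and root markers were tested in these differences. The members, gene lists and tests were chosen with earlier results of these data known, and role groups after the values were seen.

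Named genes are members with 1 gene that are on a list, among the 12 largest differences in Col-0 or in the mutants, among the 6 lowest in the mutants, called in another comparison (up to 6 each), nearest to a threshold (3 on each side), or among the 4 lowest or highest in seeds. Up to 3 listed genes outside the members are named per list. The remaining named members and the unnamed probe sets given with values were chosen after their values were seen.

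Alternatives were other normalization, centring, spread estimates, dim-probe filters, thresholds, membership limits, sets of arrays, a replicate block and leaving out each array.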

Additional observations from a re-analysis of the deposited data

Results flagged for a closer look

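The probe set 267028_at moved in opposite directions in the 2 organs. In seeds prt6-1 minus Col-0 was -0.99, with all 3 prt6-1 arrays below all 3 Col-0 arrays, while in air seedlings it was 0.41, with both prt6-1 arrays above both Col-0 arrays. The difference between the organs was not tested, and the seedling value is one that the choice of members used.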

How the results depend on the processing

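The count of the 52 members called higher under hypoxia was 44 in prt6-1 and 43 in ate1 ate2. Leaving out 1 array gave 38 to 46 in prt6-1 and 32 to 44 in ate1 ate2, the last lowest without ate1 ate2 hypoxia replicate 2. Stricter membership left fewer members: with a Col-0 difference of at least 1.5, 15 in prt6-1 and 16 in ate1 ate2 were called of 17, and with a band of 0.25 in air, 17 in each were called of 21. Between the mutants under hypoxia, 2 members were called. That count was 0 to 2 without 1 array, 0 at an adjusted p under 0.01, 4 with an intensity trend, 0 in one fit of all 18 arrays, 1 after quantile renormalization, and 2 after median centring (both lower in ate1 ate2), 1 with the minimum of 1.5 and 1 with the band of 0.25. The difference between the mutants' responses was called for 0 members in every alternative run. In seeds 9 members were called. That count was 4 to 11 without 1 array, with 4 without Col-0 replicate 3 and 5 without any 1 prt6-1 array, 3 at an adjusted p under 0.01, and 17 in one fit of all 18 arrays, of which 11 were higher.

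A replicate block gave 45 members in prt6-1, 44 in ate1 ate2, 2 between the mutants under hypoxia and 7 in seeds. Same-numbered arrays deviated together with correlations of -0.23 to 0.26 in 15 pairs of seedling groups (7 over 0.1) and of -0.08 to -0.02 in 3 seed pairs, so whether the numbers pair the samples is undecided, and they were treated as unpaired. Since prt6-1 hypoxia and air numbers correlated at -0.23, a block with crossed numbers, chosen after seeing the data, was run; it gave 44 in prt6-1 and 45 in ate1 ate2. Over 65 results of single probe sets, 1232 of 1350 alternative values kept direction and side of the threshold, 99 lost the call, 16 gained it and 3 changed sign. The last were AT4G37850 in prt6-1, at -0.08 without prt6-1 air replicate 1 and -0.23 without prt6-1 hypoxia replicate 1 (up to 0.25 without another array), and AT2G22880 in ate1 ate2, at -0.13 without ate1 ate2 air replicate 1 (up to 0.47). AT2G37750 in prt6-1 (adjusted p = 0.0528) gained the call in 13 alternatives. The cause of these changes was not tested, apart from the smaller number of members or arrays.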
